A study of Arabidopsis thaliana with 6 samples.

Results

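The 31 genes described here encode nuclear subunits of photosystem I and photosystem II and soluble electron carriers around them. They also include the Rieske subunit of cytochrome b6f and nuclear subunits of the chloroplast ATP synthase. The set is a selection, and ATPF2 and FD1, for example, are counted with other genes of electron transport below. The 31 were picked by locus code from gene function, with earlier results of these data known, and the antenna proteins were kept out. There are 12 genes of photosystem I, 11 of photosystem II and 8 of the carriers and ATP synthase, out of 20297 loci listed in any library. Each of the 31 was listed in every library and passed every filter on low counts.

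RNA was sequenced from leaves of Arabidopsis thaliana at 2 weeks of age, from Col-0 and from the lsm1a lsm1b double mutant. Chilled plants had grown on soil in long days at 90 µmol m-2 s-1 and stood at 4 °C for 24 h under 40 µmol m-2 s-1. Drought plants had grown on GM medium and were moved for 10 h to plates with 55% polyethylene glycol (PEG). Salt plants came from the same kind of medium and spent 10 h on 150 mM NaCl. Growth light was 90 µmol m-2 s-1 for the drought and salt plants as well. Each combination of genotype and stress is represented by 1 library, 6 together. A genotype difference within a stress therefore has no replicate check, and the 95% intervals beside it cover counting error only. The alleles, and whether plants were pooled, are not stated in the sources. Unstressed plants were not analysed here, so no level below is a response to a stress.

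In the thylakoid membrane, photosystem II takes electrons from water and passes them through plastoquinone to cytochrome b6f. Plastocyanin carries them on to photosystem I, which hands them to ferredoxin, and ferredoxin-NADP reductase makes NADPH with them. The proton gradient built on the way drives ATP synthase. The reaction centre cores are encoded in the chloroplast genome, while the peripheral, oxygen-evolving and regulatory subunits described here are made in the cytosol from nuclear mRNAs and imported. LSM1A and LSM1B are alternative subunits of the cytoplasmic LSM1-7 ring, which promotes decapping of mRNAs that have lost their poly(A) tail.

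Totals of gene counts ran from 10289392 to 22639128. LSM1A had counts of 206, 246 and 273 (Col-0 in cold, PEG, NaCl) and of 10, 26 and 12 (mutant libraries). LSM1B was lower in the mutant in cold (152 and 39) and PEG (207 and 98), but in salt it was the reverse, 195 for Col-0 and 439 for the library labelled lsm1a lsm1b, against its label. Directions in salt are therefore those of that library. The 5 leaf markers (RBCS1A, RCA, CA1, GAPA1, GLDP1) were present in every library, with a summed level of 21719 to 23047 CPM (counts per 1e6 reads) in cold, against 5141 and 5369 on PEG and 12839 and 14971 on salt plates. Root markers, nearly all of it PYK10, summed to 97.1 and 137 CPM in the cold libraries and to 1436 to 1860 CPM in the plate libraries. The 8 seed markers were not listed in cold, summed to 536 and 798 CPM in PEG (Col-0, mutant) and to 22.9 and 485 CPM in NaCl. Of the 4 flower markers, only SEP3 was listed, at up to 1.94 CPM. The part these other tissues play in the values below was not tested. In such bulk samples, fewer cells of a type and less RNA per cell cannot be told apart.

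The 31 genes were among the most abundant mRNAs of these leaves. Together they made 3.87% (Col-0) and 3.47% (mutant) of all counts in cold. Their share was 1.52% and 1.99% in PEG, and on salt plates 3.25% and 3.68%. By RPKM, which divides counts by library total and gene length and so allows genes to be compared, 29 or 30 of the 31 stood among the 500 highest genes in the cold and salt libraries, against 21 (Col-0) and 24 (mutant) in PEG. Their median level in RPKM was 1374 and 1289 (cold), 403 and 582 (PEG) and 978 and 1145 (NaCl), beside 9.72 to 11.5 RPKM for all listed genes.

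**Figure D1:**
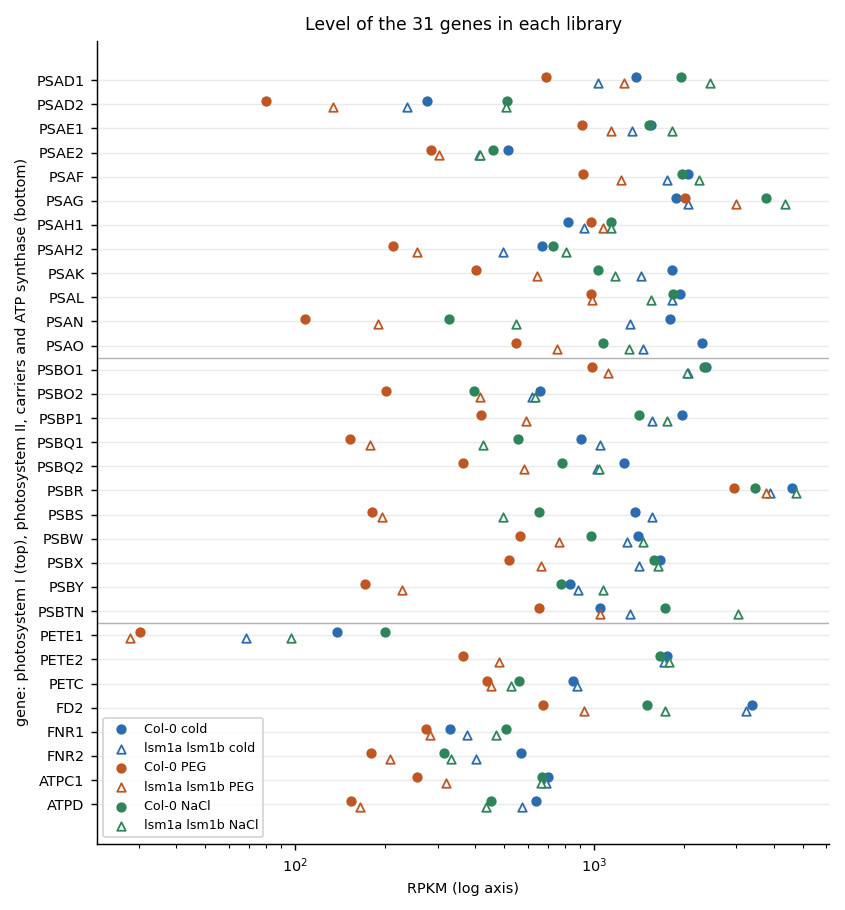
Level of each gene in each library in RPKM on a log axis, with filled circles for Col-0 and open triangles for lsm1a lsm1b, coloured by stress. PSBR lies near the right edge in every library, PETE1 is the lowest gene in all 6, and the PEG libraries lie to the left for most genes.

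PSBR (AT1G79040), a small photosystem II subunit next to the oxygen-evolving complex, was the most abundant member in 5 of the 6 libraries. In order of Col-0 and mutant, its level in RPKM was 4616 and 3890 (cold), 2937 and 3775 (PEG), and 3465 and 4750 (NaCl). In salt-treated Col-0 it was passed by PSAG (AT1G55670), a peripheral photosystem I subunit next to the antenna, at 3762 RPKM. PSAG stood at 1880 and 2066 RPKM in cold, 2023 and 2988 in PEG and 4356 in the salt library labelled lsm1a lsm1b. FD2 (AT1G60950), the main leaf ferredoxin, led the carriers in cold (3378 and 3220 RPKM) and PEG (678 and 929). In salt FD2 (1504 and 1728) stood just below PETE2 (AT1G20340), the major plastocyanin gene (1659 and 1788). PETE1 (AT1G76100), the minor plastocyanin gene, was the lowest of the 31 throughout, at 138 and 68.5 RPKM in cold, 30.2 and 28.1 in PEG and, in salt, 199 and 97.2. PSAD2 (AT1G03130) was the lowest photosystem I gene in cold (277 and 237) and PEG (80.1 and 134), and PSAN (AT5G64040) in salt-treated Col-0 (328). These levels are single libraries, so the order of neighbours such as FD2 and PETE2 has no error to judge it by.

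The genotype comparison asks whether loss of LSM1 changed the mRNAs of the electron transport chain in each stress. In cold, most of the 31 genes were slightly lower in lsm1a lsm1b: 24 had a log2 ratio (lsm1a lsm1b over Col-0, scaled by TMM) below 0 and 7 above. The median was -0.29, against -0.02 over all 14816 genes with at least 5 CPM, of which 51.6% were below 0. PETE1 alone was at least 2-fold lower (1 of 31, against 5.13% of all genes), and none of the 31 was at least 2-fold higher (8.26% of all genes). At 1.5-fold, 3 members were lower (12.3% of all genes) and 0 higher (14.3%). By counting error alone, 24 lay below 0 (29.4% of all genes) and 6 above (28.4%). The intervals of abundant genes are narrow, so such background shares, in this and the other stresses, are low for this set. Past 1.5-fold, then, members were no more frequent than genes at large, while their median lay below that of all genes.

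In PEG most members lay on the other side, with 26 of 31 ratios above 0 and a median of 0.26, beside a median near 0 over 15070 genes, 49.6% of which were above 0 and 50.4% below. The counting interval lay above 0 for 23 members (30.3% of all genes) and below for 4 (32.5%). None of the 31 was at least 2-fold higher or lower, whereas 3.6% and 3.65% of all genes were. At 1.5-fold, 4 were higher (9.45% of all genes) and 0 lower (9.91%). In salt 20 of 31 were above 0 in the library labelled lsm1a lsm1b, with a median of 0.14 beside -0.01 over 15906 genes, of which 48.8% were above 0 and 51.2% below. The interval lay above 0 for 19 (33.6%) and below for 9 (35.8%). PETE1 was again the 1 gene at least 2-fold lower (4.46% of all genes), and 0 were at least 2-fold higher (5.5%). At 1.5-fold, 3 were higher (12.5%) and PETE1 lower (12.7%).

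**Figure D2:**
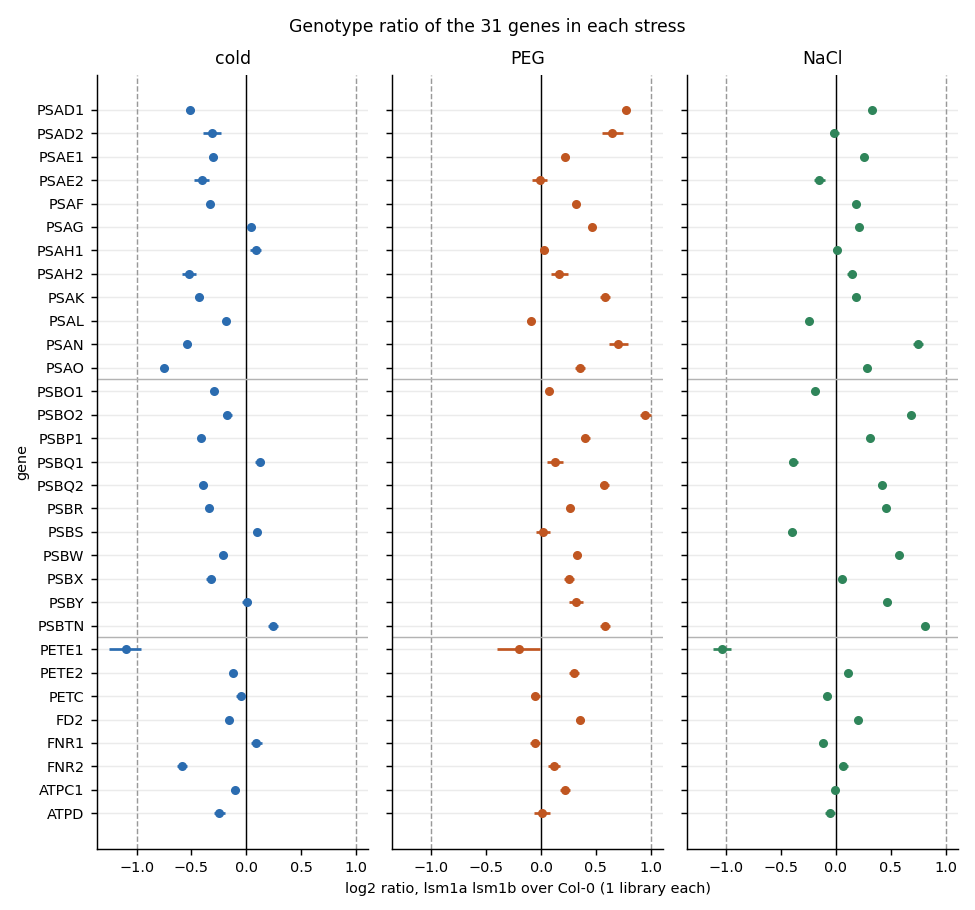
log2 ratio of the lsm1a lsm1b library over the Col-0 library for each gene in cold, PEG and NaCl, with its 95% counting interval, and dashed lines at 2-fold. Most cold points lie left of 0 and most PEG points right of 0, and PETE1 is the farthest to the left in each stress.

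Among the photosystem I genes, 10 of 12 were below 0 in cold (median -0.37), and 10 were above 0 in PEG (0.34) and 9 in NaCl (0.18). PSAO (AT1G08380), a small subunit on the side where light-harvesting complex II docks, had 20157 and 10587 counts in cold (Col-0, mutant), 7941 and 9558 in PEG and, in salt, 15269 and 20797. Its log2 ratio was -0.75 in cold (interval -0.78 to -0.71), the lowest of the photosystem I genes, and 0.35 and 0.28 in PEG and NaCl. PSAN, a lumenal subunit that helps plastocyanin dock, had 19042 and 11565 counts in cold, 1897 and 2911 in PEG and, in salt, 5647 and 10626. The mutant library was thus the lower of its pair in cold (-0.54) and the higher on both plates (0.70, 0.62 to 0.79, and 0.75, 0.70 to 0.79). PSAD1 (AT4G02770), which encodes the subunit that binds ferredoxin, followed the same order with 14387 and 8884, 11825 and 19002, and 32939 and 46260 counts (-0.51, 0.77 and 0.33).

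Of the other photosystem I genes, PSAD2 (-0.31 in cold, 0.65 in PEG, -0.01 in NaCl) and PSAH2 (-0.52, 0.17 and 0.14) are described with their pairs below. PSAL (AT4G12800), needed for the docking of light-harvesting complex II, was lower in the mutant library of every stress, with 23726 and 18454 counts in cold, 19800 and 17472 in PEG and, in salt, 36652 and 34578 (-0.18, -0.09 and -0.25), though with total count scaling its PEG ratio was above 0. PSAG went from 18220 to 16584 in cold, 32388 to 42049 in PEG, and 59222 to 76912 in NaCl, which after scaling gave 0.05, 0.46 and 0.21. PSAF (AT1G31330), the plastocyanin-docking subunit, and PSAK (AT1G30380), which lies beside the antenna, were on the lower side in cold (-0.33 and -0.43) and on the higher side in PEG (0.32 and 0.58) and NaCl (0.18 and 0.18).

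Photosystem II genes were below 0 in 7 of 11 cases in cold (median -0.22), and above 0 in 11 of 11 in PEG (0.32) and 8 of 11 in NaCl (0.42). PSBTN (AT3G21055), a small subunit of the nuclear PsbT family, had 7209 and 7513 counts in cold, 7399 and 10424 in PEG and, in salt, 19234 and 37966. It was the highest member in cold (0.24, 0.19 to 0.29) and in NaCl (0.82, 0.79 to 0.84), and stood above 0 in PEG too (0.58). PSBS (AT1G44575), the pH sensor of energy-dependent quenching, had 18073 and 17054 counts in cold, 3925 and 3735 in PEG and, in salt, 14010 and 11909. Its ratio was near 0 in cold and PEG (0.10 and 0.01) and below 0 in NaCl (-0.40, -0.43 to -0.36). PSBR had 41286 and 28815, 43402 and 49038, and 50358 and 77425 counts (-0.34, 0.26 and 0.46), and PSBW (AT2G30570), a small subunit that stabilises supercomplexes, had the same order of signs (-0.22, 0.33 and 0.58).

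Of the carriers and ATP synthase, 7 of 8 were below 0 in cold, and 5 and 3 of 8 above 0 in PEG and NaCl. PETE1, on chromosome 1 at 28553987 to 28554768 (TAIR10, minus strand), had 1341 and 551 counts in cold, 485 and 397 in PEG and, in salt, 3147 and 1720. The mutant library was lower in each pair, by 2.14-fold in cold (log2 ratio -1.10, -1.25 to -0.96), 1.15-fold in PEG (-0.20, -0.40 to -0.01) and 2.05-fold in NaCl (-1.04, -1.12 to -0.95). PETC (AT4G03280), the Rieske iron-sulphur protein, lay near 0 in each stress, with -0.05, -0.05 and -0.08, the first and second above 0 under total count scaling. FD2 had 34950 and 27602 counts in cold, 11589 and 13959 in PEG and, in salt, 25293 and 32595 (-0.16, 0.35 and 0.20). ATPC1 (AT4G04640) and ATPD (AT4G09650), the gamma and delta subunits of ATP synthase, stayed within 0.25 of 0 on the log2 scale in every stress.

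Taking the 3 stress pairs as replicates, edgeR's quasi-likelihood test with stress as a block called 0 of the 31 genes at a Benjamini-Hochberg adjusted p under 0.05, where 0.112% of the 16927 genes tested were called higher and 0.1% lower. DESeq2 and limma-voom also called 0 of the 31. At an unadjusted p under 0.05 there were 2 members, with 7.38% of all genes higher and 8.28% lower at that level. They were PETE1, at a fitted log2 difference of -0.78 ± 0.21 (SE, 3 pairs, edgeR adjusted p = 0.21) and lower in 3 of 3 pairs, and PSBTN, at 0.55 ± 0.19 (edgeR adjusted p = 0.278) and higher in 3 of 3. Without the salt pair, whose mutant library goes against its label at LSM1B, the test called 0 members and 0 genes in all. The median of the members was 0.06 over the 3 stresses, 0.24 without the cold pair, 0.06 without the salt pair and -0.05 without the PEG pair, where 19 of 31 were below 0. Without the stress block it was -0.02.

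The small ratios had opposite signs in cold and on plates for many members. In 16 of 31 the counting interval lay below 0 in cold and above 0 in both PEG and NaCl, against 3.18% of all genes, and in 1, FNR1 (AT5G66190), it was the reverse (3.35%), with a PEG ratio above 0 under total count scaling. Leaving out the salt pair, 19 of 31 lay below 0 in cold and above 0 in PEG, against 6.62% of all genes. Abundant genes have narrow counting intervals, so these background shares, taken over genes of every level, are low for a set of this abundance. A test of the genotype difference in cold against that on plates, added after the values had been seen, called 0 of 31 by edgeR, DESeq2 and limma-voom. By edgeR it called 1.54% of all genes higher and 0.662% lower. At an unadjusted p under 0.05 edgeR counted 5 members, PSAD1, PSAN, PSAO, PSBO2 (AT3G50820) and PSBQ2 (AT4G05180), each lower in cold than on plates, where 6.3% of all genes were, and 0 higher (8.77%). PSAN had the largest fitted difference, -1.26 ± 0.32 (SE, edgeR adjusted p = 0.109). Cold plants also differed from plate plants in growth medium and duration, and the cold treatment was given at 40 µmol m-2 s-1 after growth at 90. These cannot be told apart from the cold itself.

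In 7 cases a subunit or carrier is encoded by a pair of genes, and in several pairs the 2 copies did not keep the same proportion. Reads of such copies can be split between them by the counting, and the tool that counted is not stated. Each share below is of the summed counts of a pair, with its exact Clopper-Pearson 95% interval.

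PSBO1 (AT5G66570) and PSBO2 encode the protein that stabilises the manganese cluster of photosystem II. PSBO1 had 36614 and 26336 counts in cold, 25268 and 25036 in PEG and, in salt, 58546 and 57693. PSBO2, the minor copy, had 10174 and 7965, 5143 and 9352, and 9964 and 17896. The share of PSBO2 was 21.7% (Col-0) and 23.2% (mutant) in cold, 16.9% (16.5 to 17.3) and 27.2% (26.7 to 27.7) in PEG and, in salt, 14.5% (14.3 to 14.8) and 23.7% (23.4 to 24.0). It was higher in the mutant library of all 3 stresses, by 10.3 and 9.13 percentage points on plates and by 1.48 points in cold. PSBO2 had the highest ratio of the 31 in PEG (0.95, 0.90 to 1.0), while PSBO1 was near 0 there (0.07).

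In the plastocyanin pair the share of PETE1 was lower in the mutant library each time. It was 6.18% (5.86 to 6.51) and 3.23% (2.97 to 3.51) in cold, 6.48% (5.94 to 7.06) and 4.66% (4.22 to 5.12) in PEG and, in salt, 9.13% (8.83 to 9.44) and 4.35% (4.15 to 4.55). PETE2 had 20360 and 16488 counts in cold, 6996 and 8130 in PEG and, in salt, 31313 and 37838, with ratios of -0.12, 0.30 and 0.11. With 3 pairs, an exact sign-flip permutation test cannot give a two-sided p under 0.25, and none was run.

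The photosystem II subunit PsbQ, of the oxygen-evolving complex, shifted in opposite directions. PSBQ2 had 16294 and 10940 counts in cold, 7754 and 10895 in PEG and, in salt, 16388 and 24520, and PSBQ1 (AT4G21280) had 10206 and 9795, 2835 and 2915, and 10217 and 8749. The share of PSBQ1 was 38.5% and 47.2% in cold, 26.8% and 21.1% in PEG and, in salt, 38.4% and 26.3%, higher in the chilled mutant and lower in the mutant on plates. Ferredoxin-NADP reductase did the same in the other sense: FNR1 had 6196 and 5827, 8482 and 7680, and 15535 and 16023 counts, and FNR2 (AT1G20020) had 9880 and 5797, 5141 and 5245, and 8895 and 10461. The share of FNR2 was 61.5% and 49.9% in cold, 37.7% and 40.6% in PEG and, in salt, 36.4% and 39.5%. FNR2 was among the 3 members with the lowest ratio in cold (-0.59, -0.64 to -0.54).

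In the PSAH and PSAD pairs the shares differed more between PEG and NaCl than between the genotypes on either plate. PSAH2 (AT1G52230) had 5518 and 3393 counts in cold, 2908 and 3077 in PEG and, in salt, 9814 and 12149. PSAH1 (AT3G16140), the other copy of the subunit at the light-harvesting complex II docking site, had 6786 and 6345, 13405 and 12891, and 15299 and 17238. PSAH1 therefore made 82.2% and 80.7% of the pair in PEG, against 60.9% and 58.7% in NaCl and 55.2% and 65.2% in cold. The PEG and NaCl values did not overlap, but 2 libraries against 2 cannot give an exact permutation p under 0.333. How often pairs of genes at large do the same was not counted. PSAD2, with 3068 and 2177, 1466 and 2163, and 9242 and 10268 counts, made 11.0% and 10.2% of the PSAD pair in PEG and 21.9% and 18.2% in NaCl. PSAE1 (AT4G28750) and PSAE2 (AT2G20260) encode the other stromal subunit at the ferredoxin site. PSAE1 had 13479 and 9629, 13059 and 14345, and 21525 and 28885 counts, and PSAE2 had 3894 and 2588, 3555 and 3318, and 5649 and 5705. The share of PSAE2 ran from 16.5% to 22.4% and was lower in the mutant library of each stress.

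**Figure D3:**
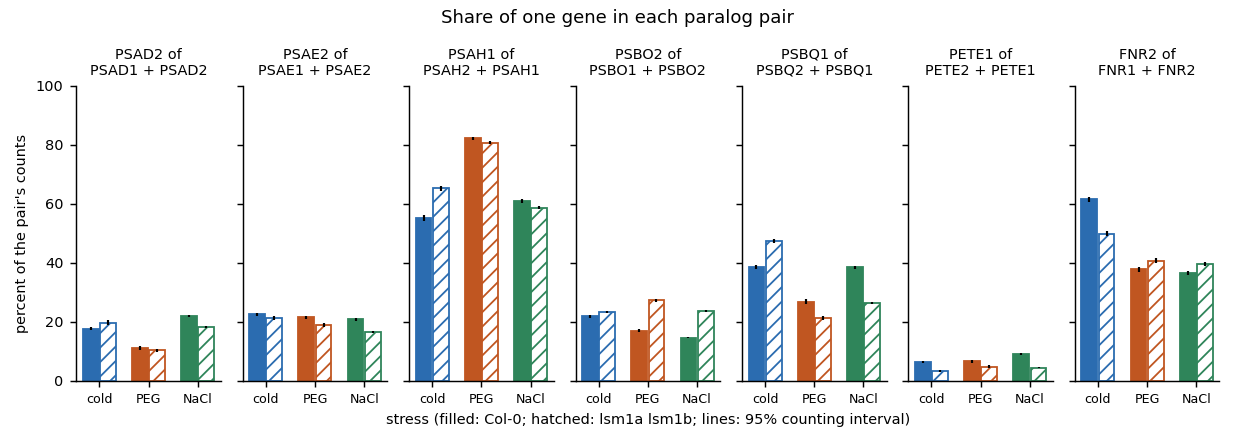
Share of 1 gene in the summed counts of each of the 7 paralog pairs, in percent, by stress, with filled bars for Col-0, hatched bars for lsm1a lsm1b and lines for the 95% counting interval. The PSBO2 bars are taller for lsm1a lsm1b in each stress, the PETE1 bars are shorter, and the PSAH1 bars are tallest in PEG.

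The upstream sequences of the plastocyanin and PSAH pairs are shown as examples, and the shares of other pairs also differed between libraries. Each sequence is the 250 bases before the annotated gene start in RefSeq's TAIR10.1, 5′ to 3′ on the gene's strand. Capitals mark matches, on either strand, to CACGTG (the G-box), GATAAG (the I-box), CCAAT and GATTCT (the letters searched for GLK factors). The windows are chr1:28554931-28555180 (PETE1, minus strand), chr1:7043393-7043642 (PETE2, minus), chr3:5469595-5469844 (PSAH1, minus) and chr1:19454548-19454797 (PSAH2, plus). In the deposited gene models these genes begin at 28554768, 7043363, 5469481 and 19454836, in the same order. The bases between those starts and the windows were not searched, and their number differs between the genes.
PETE1: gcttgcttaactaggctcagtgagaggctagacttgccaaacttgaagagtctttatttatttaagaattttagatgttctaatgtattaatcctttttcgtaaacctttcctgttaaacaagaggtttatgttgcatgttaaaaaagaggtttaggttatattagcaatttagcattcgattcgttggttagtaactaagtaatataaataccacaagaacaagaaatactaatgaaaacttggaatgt
PETE2: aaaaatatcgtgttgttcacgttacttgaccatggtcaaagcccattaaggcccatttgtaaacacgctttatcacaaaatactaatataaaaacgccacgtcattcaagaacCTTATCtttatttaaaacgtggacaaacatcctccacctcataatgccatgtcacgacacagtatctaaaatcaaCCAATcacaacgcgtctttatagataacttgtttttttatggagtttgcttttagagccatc
PSAH1: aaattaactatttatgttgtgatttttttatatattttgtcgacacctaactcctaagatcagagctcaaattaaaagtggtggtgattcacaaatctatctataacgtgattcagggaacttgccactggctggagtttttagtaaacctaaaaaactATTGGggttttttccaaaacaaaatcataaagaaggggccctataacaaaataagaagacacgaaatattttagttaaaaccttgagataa
PSAH2: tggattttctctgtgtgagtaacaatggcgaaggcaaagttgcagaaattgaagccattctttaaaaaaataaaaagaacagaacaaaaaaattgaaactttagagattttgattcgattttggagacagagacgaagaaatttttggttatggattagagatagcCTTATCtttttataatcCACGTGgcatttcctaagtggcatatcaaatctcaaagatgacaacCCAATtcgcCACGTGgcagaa
PETE1 had no match, PETE2 had 1 I-box and 1 CCAAT, PSAH1 had 1 CCAAT, and PSAH2 had 2 G-boxes, 1 I-box and 1 CCAAT. Over the 31 genes, 6 (19.4%) held a G-box, 8 (25.8%) an I-box, 15 (48.4%) a CCAAT and 9 (29.0%) a GATTCT, in windows of the same length that held them in 6.49%, 12.3%, 46.05% and 15.9% of 27437 nuclear protein-coding genes. These counts describe letters in the windows, and no binding was measured.

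PEG and NaCl plants shared age, medium and duration, so these stresses were compared directly in the fit of the 6 libraries, with genotype as a term. Every one of the 31 genes had a fitted value below 0, that is, lower in PEG, and all were lower in PEG in both genotypes. The median was -1.02, against a median near 0 over 16927 genes, so nearly as many of all genes lay above 0 as below. The share of all genes lower in PEG in both genotypes was not counted. In all, 12 of 31 (38.7%) were lower at an adjusted p under 0.05 by edgeR, against 5.33% of all genes, and 0 were higher (3.21%). These were 2 of photosystem I (PSAD2, PSAH2), 6 of photosystem II (PSBP1, PSBQ1, PSBS, PSBX, PSBY, PSBTN) and 4 of the carriers and ATP synthase (PETE1, PETE2, ATPC1, ATPD). At an unadjusted p under 0.05, 26 were lower (17.2% of all genes) and 0 higher (15.0%).

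The largest fitted difference was that of PSAD2, 4.72-fold lower in PEG (log2 difference -2.24 ± 0.28, SE, edgeR adjusted p = 0.0284). PETE1 and PETE2 were 4.59-fold and 4.0-fold lower (edgeR adjusted p = 0.0281 and 0.0266). PSBY (AT1G67740), which encodes a small subunit next to cytochrome b559, had 3823 and 4483 counts in PEG and 17009 and 26413 in NaCl, with 11205 and 9895 in cold, and was 4.50-fold lower (edgeR adjusted p = 0.0259). PSAH2 was 3.20-fold lower (edgeR adjusted p = 0.0325), whereas its copy PSAH1 had -0.12 ± 0.19 (edgeR adjusted p = 0.704). In the oxygen-evolving complex, PSBP1 (AT1G06680) had 9805 and 12222 counts in PEG and 32592 and 45211 in NaCl, with 27804 and 18368 in cold, and was 3.07-fold lower. PSBQ1 (2.90-fold) was likewise lower, while PSBQ2 (-0.93 ± 0.30), PSBO1 (-1.02 ± 0.25) and PSBO2 (-0.74 ± 0.32) did not pass.

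PSBS was 2.97-fold lower in PEG (edgeR adjusted p = 0.0325), and PSBTN 2.71-fold. PSBX (AT2G06520), a small subunit near the quinone exchange site, had 6740 and 7583 counts in PEG and 20145 and 23436 in NaCl, with 13003 and 9158 in cold, and was 2.66-fold lower. For ATP synthase, ATPD had 3042 and 2885 counts in PEG, 8830 and 9532 in NaCl and 7682 and 5708 in cold, and was 2.72-fold lower. ATPC1 had 7995 and 8767, 20577 and 22981, and 13244 and 10852, and was 2.27-fold lower (edgeR adjusted p = 0.0296 for ATPD and 0.0409 for ATPC1). The members nearest to 0 were PSAH1, PETC (-0.25 ± 0.19) and PSBR (-0.26 ± 0.31).

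**Figure D4:**
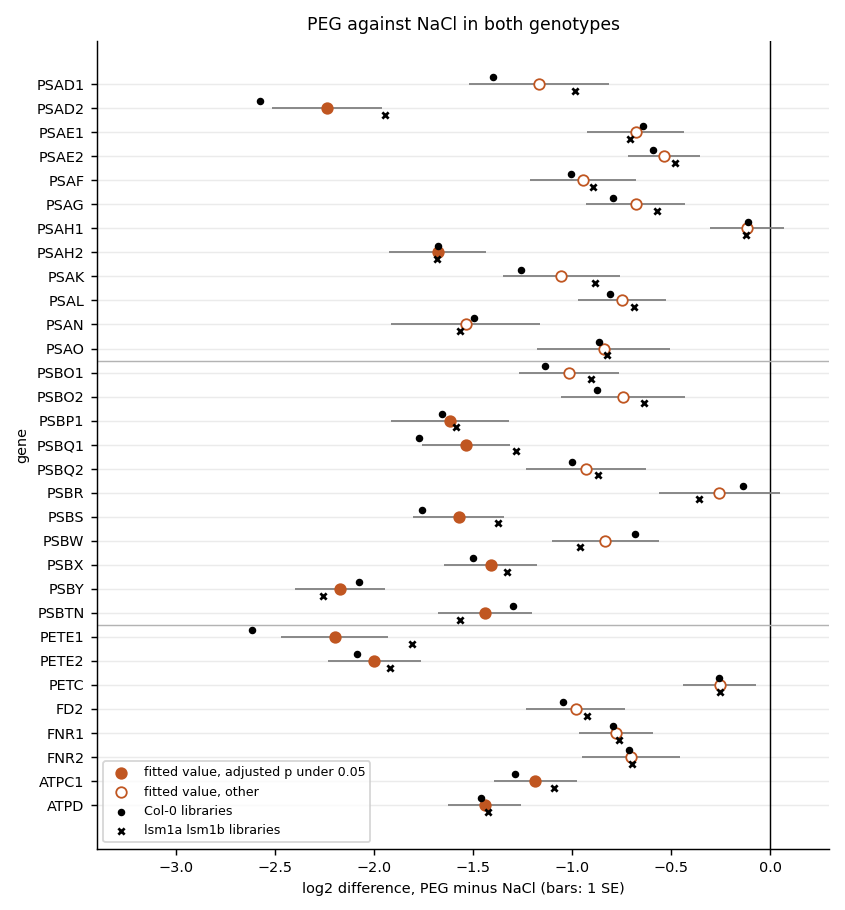
Fitted log2 difference between PEG and NaCl for each gene with its SE, filled where the adjusted p was under 0.05, and the same difference within the Col-0 libraries (dots) and the lsm1a lsm1b libraries (crosses). Every marker lies left of 0, and 12 fitted values are filled.

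These calls rest on 2 libraries per stress that differ in genotype. Leaving out any 1 of the 4 plate libraries ended every call, among the 31 and among all genes, while the median stayed between -1.22 and -0.81. With the library labelled lsm1a lsm1b left out in NaCl, 30 of 31 fitted values were below 0, and otherwise 31. DESeq2 called 23 of the 31 lower, with 1779 of all 16927 genes lower. By limma-voom 16 members and 1297 genes were lower. A fit of the PEG and NaCl libraries alone called 26 members, with 2827 of 16931 genes lower. Of the 5 leaf markers, RBCS1A (-2.18), RCA (-1.44) and GAPA1 (-1.23) were lower in PEG by the same edgeR test. CA1 (-0.72) and GLDP1 (-0.29) were also below 0 but did not pass. The summed leaf marker levels given above were lower in both PEG libraries. Root markers summed to 1453 and 1456 CPM in PEG and 1860 and 1436 CPM in NaCl, and seed markers to 536 and 798 CPM and to 22.9 and 485 CPM. The part of these markers' tissues in the result was not tested.

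Other genes of the pathway were counted by list. Where no share of all genes is printed beside a count, it is the one given above for the same comparison. Of the 21 antenna genes, 10 were at least 2-fold lower in the chilled mutant (5.13% of all genes) and 0 higher (8.26%). Their median of -0.89 was lower than that of the 31 subunits. LHCB4.2 (10940 and 1640 counts, -2.56), LHCB1.1 (-2.19), LHCB2.3 (-1.82) and LHCB1.4 (-1.61) lay farthest from 0. The LHCB1 and LHCB2 genes are near-identical copies, so their reads may be split. On plates 2 antenna genes were at least 2-fold higher in the mutant library: LHCB2.1, with 1265 and 4255 counts in PEG and 4409 and 13294 in NaCl, had ratios of 1.83 and 1.43, and LHCB2.2 had 1.60 and 1.14. LHCB1.4 (-1.72) and LHCB4.1 (-1.18) in PEG, and LHCB1.4 (-1.15) and LHCB1.3 (-1.05) in NaCl, were at least 2-fold lower. LHCB2.3 stayed within 2-fold there, with 0.52 in PEG and 0.50 in NaCl. In the test of cold against plates edgeR called 4 antenna genes lower (0.662% of all genes) and 0 of the 31. The 4 were LHCB2.1, LHCB2.2, LHCB2.3 and LHCB4.2. In PEG against NaCl, 7 of 21 antenna genes were lower (5.33% of all genes) and 0 higher (3.21%), LHCB3 (-3.72) by the most.

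The chloroplast-encoded partners had medians on the other side of 0 from the nuclear subunits in cold and PEG. Of the 32 psa, psb, pet and atp genes of the chloroplast genome, 29 passed 5 CPM in PEG. Of these, 29 of 29 were below 0 in the mutant (50.4% of all genes), with 11 at least 2-fold lower (3.65%). Their median was -0.85, while that of the 31 nuclear genes was 0.26. Farthest from 0 were atpA (1755 and 648 counts, -1.35), psaA (2544 and 968, -1.31), petD (-1.24) and psaB (2729 and 1093, -1.23), which encodes a core protein of photosystem I beside PsaA. In cold their median was 0.24 over 19 genes, of which 8 were below 0 as most nuclear members were, and in NaCl it was -0.05 over 27, with petB (-1.02) alone past 2-fold. In PEG against NaCl 0 of 32 passed in either direction, with a median of 0.42. All chloroplast rows together made 3.18% of counts in Col-0 and 2.05% in lsm1a lsm1b in PEG. In cold they made 0.411% and 0.390%, and in NaCl 1.62% and 1.90% (Col-0, mutant). How fully chloroplast mRNAs were captured in these libraries was not tested, and capture and abundance cannot be told apart here.

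**Figure D5:**
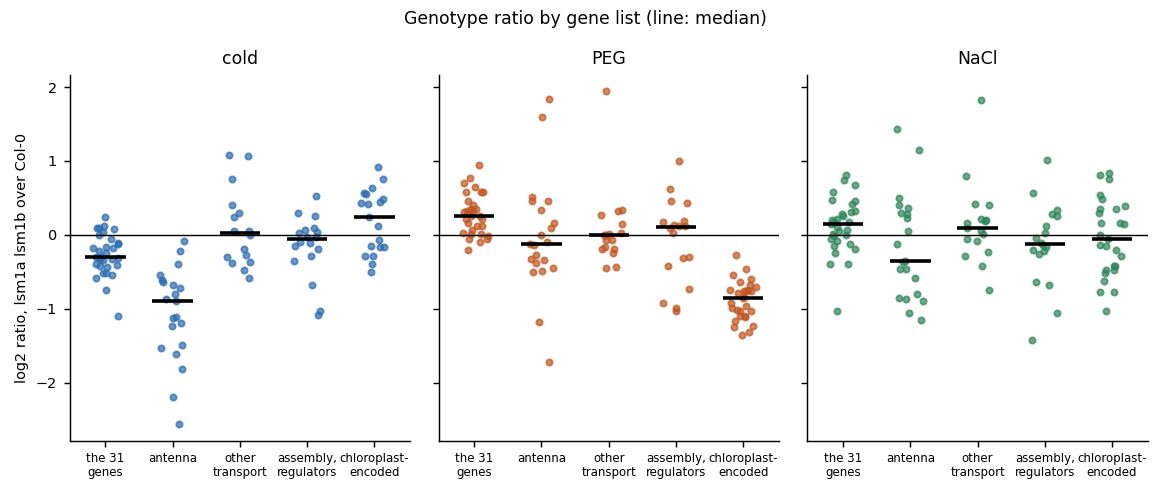
log2 ratio of lsm1a lsm1b over Col-0 for the genes of each list with at least 5 CPM, by stress, with a line at the median. In PEG the chloroplast-encoded genes lie wholly below 0 (median -0.85) while most of the 31 nuclear genes lie above it (0.26), and in cold the antenna genes lie lowest (-0.89).

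Among 18 other nuclear genes of electron transport, 2 were at least 2-fold higher in the chilled mutant and 0 lower, both of non-photosynthetic plastids: the reductase gene RFNR2 (87 and 165 counts, 1.09) and the ferredoxin gene FD3 (160 and 299, 1.07). CYTC6A, which encodes a lumenal cytochrome, was the 1 gene past 2-fold in PEG (135 and 495 counts, 1.94) and in NaCl (108 and 433, 1.82). Of the 18, PSB28 (-1.34) and PGRL1A (-1.21), a component of cyclic electron flow, were lower in PEG than in NaCl, and the plastid terminal oxidase PTOX (0.83) was higher. Of 18 assembly factors and regulators, GLK2, a transcription factor of photosynthesis genes, was lower in the mutant libraries with 2357 and 1018 counts in cold, 577 and 274 in PEG and, in salt, 883 and 368 (-1.03, -0.98 and -1.42). SIG2, a sigma factor of the plastid polymerase, was lower in cold (-1.09), and GUN4, a regulator of chlorophyll synthesis, in PEG and NaCl (-1.03 and -1.05). PAM68, a photosystem II assembly factor, was higher in NaCl (1.01). For the genotype across stresses edgeR called 0 genes of these 2 lists. In PEG against NaCl it called GLK1 (-2.65), CHLH (-2.23), GUN4 (-1.78) and CHLI1 (-1.57) lower and SIG5 (1.81) higher, of 18.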

How the data were processed

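The authors deposited raw read counts per gene, 1 file per sample, with gene lengths, per the file headers. TAIR10, TopHat2 and DESeq2 are named without versions in the submitters' processing notes, and strand and counting tool are not given in the sources used here. Each locus was taken from the locus column, or from the transcript name in the cold files. That name went against the locus in 270 rows for NaCl and 1 for PEG, none of them a member. Files list 18168, 18734 and 19468 genes (cold, PEG, NaCl).

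For each stress TMM scaling (edgeR 4.0.16 under R 4.3.3) was applied to the counts, and log2 ratios used a prior count of 2, with exact Clopper-Pearson 95% intervals for counting error. Calls needed 2-fold (or 1.5-fold) and 5 CPM. Across libraries edgeR's quasi-likelihood test was used (filterByExpr, two-sided, adjusted over all genes). The SE is the estimate over the square root of F, with 2 residual degrees of freedom (1 in the test of cold against plates) before shrinkage over genes. Samples are not stated to be independent, so p-values measure only the spread between these libraries. DESeq2 1.42.0 and limma 3.58.1 were alternatives. The functions were tested on simulated data. Members, lists and rules were chosen with earlier results of these data known. Values in every library are given for members past a call, among the 3 highest or lowest ratios of a stress, in a paralog pair, or highest or lowest of a complex, and list genes were named when past 2-fold (up to 4 per list and stress) or past a test. Values of PSAF, PSAK, PSBW and PETC, the chloroplast and antenna genes singled out from larger sets, and the results for CYTC6A and GLK2 in full, were added after they were seen. Chloroplast genes were named where both ends matched a TAIR10.1 gene (79 of 88). Nuclear spans overlapped those of TAIR10.1 in 20046 of 20046 loci matched by code, but at least 1 end was equal in only 7580 (37.8%). Among the 31 members, at least 1 end was equal in 13 (41.9%).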

Additional observations from a re-analysis of the deposited data

Results flagged for a closer look

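For 16 of the 31 genes the mutant library was lower than Col-0 in cold and higher in both PEG and NaCl, with counting intervals clear of 0 in each. The values are the fitted log2 genotype difference in cold minus that on plates (edgeR, chosen after seeing the data), and none passed an adjusted p of 0.05. In photosystem I they were -1.26 for PSAN, -1.06 for PSAO, -1.06 for PSAD1, -0.81 for PSAK, -0.67 for PSAH2, -0.57 for PSAF and -0.54 for PSAE1. In photosystem II they were -0.98 for PSBO2, -0.89 for PSBQ2, -0.77 for PSBP1, -0.69 for PSBR, -0.66 for PSBW and -0.47 for PSBX. Among the carriers they were -0.68 for FNR2, -0.43 for FD2 and -0.32 for PETE2. Growth medium and duration differed with cold, and light was lowered for it, and these cannot be told apart.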

How the results depend on the processing

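With total count scaling the median of the 31 genes moved to -0.20 in cold and 0.36 in PEG, where the median of all genes moved by 0.10. In PEG 1 member then passed 2-fold upward and 7 passed 1.5-fold. The sign of PETC in cold and of PSAE2, PSAL, PETC and FNR1 in PEG turned, all within 0.1 of 0 by TMM, which left 23 members below 0 in cold and put 30 above 0 in PEG. At a fold limit of 4, 0 members were lower in cold and 0 in NaCl. In PEG against NaCl DESeq2 called 23 members, limma-voom 16 and the fit of the plate libraries alone 26 (all-gene counts above). Without any 1 plate library the count was 0, with the same lowest and highest value of 0. The cause was not tested. Of the alternative values of summary counts and medians, 12 moved, given above, and 129 stayed within 1.5 times or within counting error. Of those of single genes, 501 stayed, 90 moved, 48 lost their call, and no called value turned its sign. The settings were prior counts of 0.5 and 10, DESeq2 size factors, 20 CPM, no filter, organelle genes left out, no stress block and each stress pair left out, besides those above, each on the results it applies to. The genotype test called 0 members under each setting. Paralog shares per kilobase differ from those of counts, since copies differ in length. The lowest count of a member was 397 (PETE1 in the PEG library of lsm1a lsm1b), and its interval in PEG, -0.40 to -0.01, was the widest of the members there. The median of the genotype test turned its sign without the PEG pair (-0.05) and without the stress block (-0.02).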
